A study of Saccharomyces cerevisiae with 9 samples.

Results

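The COS genes are a family of similar genes that lie next to yeast chromosome ends, and their 10 named members COS1 to COS10 were read here in 5 strains of Saccharomyces cerevisiae. They were picked by gene name from the 6256 genes of the array, with earlier results of these data in view, so their own values are given as a description. COS12, a further relative, was not among the members and is described beside them. Of the 10 members, all were among the 5865 genes that passed the filter on dim spots.

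Cos proteins are membrane proteins of endosomes. They carry ubiquitin on their own tails and help other membrane proteins into the vesicles of multivesicular bodies, which deliver cargo to the vacuole for breakdown. The genes sit in the subtelomeres, the stretches beside chromosome ends where gene copies are gained, lost and exchanged between chromosomes and where silencing by the Sir proteins can reach. Separate functions of the single COS genes are little known, so they are ordered below by how they behaved rather than by role.

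On each of 9 arrays the RNA of a strain, in Cy5, was hybridised with a common reference in Cy3, which pooled RNA of BY4716 and RM11-1a after growth on glucose and on ethanol. The laboratory strain BY4716 and the vineyard strain RM11-1a had 3 arrays each, numbered 7, 9 and 11. Each of the other strains had 1 array. YAD350 carries the MKT1 replacement D30G in the laboratory strain BY4742. In YLK804 the laboratory strain BY4724 holds the RM version of SAL1 (SAL1-RM), and in YLK806 the vineyard strain RM11-1a holds the BY version (SAL1-BY). MKT1 codes for a regulator of messenger RNAs and SAL1 for a carrier of the inner mitochondrial membrane. All strains grew in yeast nitrogen base with 2% glucose, leucine, lysine and uracil, with histidine at 20 mg/L added for YAD350. The labels do not state whether the 3 arrays of a parent stem from different cultures, and the spread between them may be technical.

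The exchange strains were not made in BY4716 itself. For STE2, the pheromone receptor of mating type a cells, the log2 difference of YLK804 from BY4716 was 4.73, and for URA3 it was -4.845. In YAD350, HIS3 read 4.48 lower and LEU2 4.40 lower than in BY4716. A difference of YLK804 or YAD350 from BY4716 therefore cannot be told apart from these background differences. The parents differed in such markers too. RM11-1a minus BY4716 was 4.96 for STE2, 4.115 for LYS2, -4.03 for LEU2 and -3.87 for URA3, and -0.04 for HIS3. Mating type and these markers thus go along with every difference between the parents. The labels of the 3 exchange arrays disagree on which dye held the strain. Their Cy5 over Cy3 ratios correlated with those of the background parent over 5865 genes (r of YAD350 0.81, of YLK804 0.88, of YLK806 0.89), and Cy5 was read as the strain throughout.

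Each member had 1 probe, printed in 2 spots for 8 members and in 1 spot for COS3 and COS9. The systematic names place COS1 (YNL336W) on the left arm of chromosome XIV, COS2 (YBR302C) on the right arm of II, COS3 (YML132W) on the left arm of XIII, COS4 (YFL062W) on the left arm of VI and COS5 (YJR161C) on the right arm of X. COS6 (YGR295C) lies on the right arm of VII, COS7 (YDL248W) on the left arm of IV, COS8 (YHL048W) on the left arm of VIII, COS9 (YKL219W) on the left arm of XI and COS10 (YNR075W) on the right arm of XIV. Because the genes are alike, a probe can take signal from other copies, and how much it took was not tested. A lower signal in a strain is a lower signal at the probe: fewer transcripts, a missing copy and a transcript that differs from the probe cannot be told apart.

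Presence was read from the strain channel. A spot counts as well above background by the scanner's own test, and signal over background is the mean Cy5 signal divided by the local background of the spot, so that 1 is no signal. It also follows the brightness of the whole array, whose median strain signal was 424 on YLK804 and 239.5 to 336 on the BY4716 arrays. Levels of a probe between strains are therefore read from the log2 ratio. Signal over background does not compare one probe with another either. COS1, COS2, COS3, COS4, COS5, COS6, COS7 and COS9, 8 members, were well above background on all 9 arrays. COS10 was well above background on 6 arrays and on none of RM11-1a. COS8 was well above background on 5 arrays, those of BY4716, YAD350 and YLK804, and on none of the 4 arrays with the vineyard background. No member spot was saturated. The plot of signal over background by strain shows these levels.

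**Figure D1:**
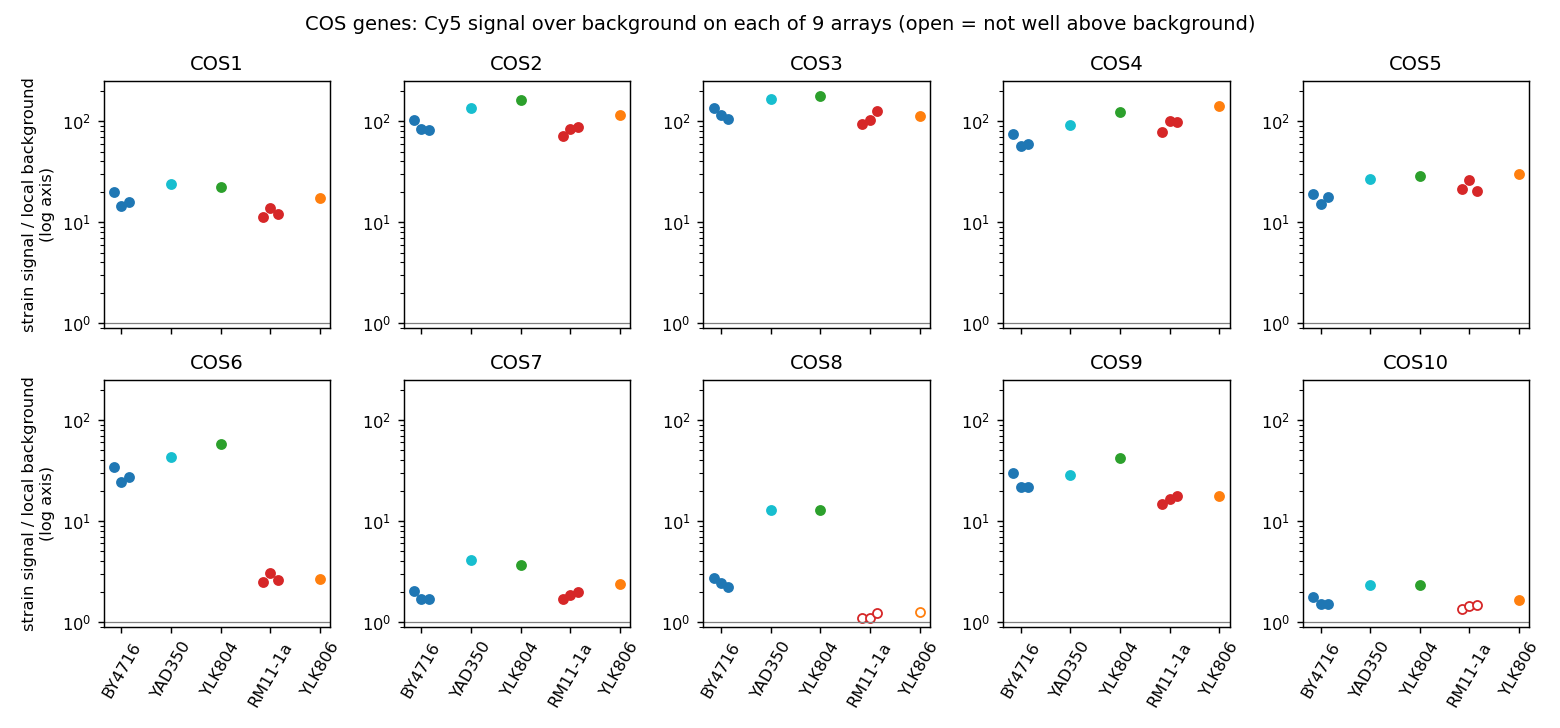
Strain (Cy5) signal divided by local background, log axis, for each COS gene on each of 9 arrays. Points are single arrays (3 for BY4716 and RM11-1a, 1 for each exchange strain), open points were not well above background, and the grey line marks 1; COS6 stands between 24.3 and 57.4 on the laboratory arrays and between 2.50 and 3.05 on the vineyard arrays, and COS8 is open on all 4 vineyard arrays.

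COS6 differed most between the backgrounds. Its signal over background was 34.2, 24.3 and 27.1 on BY4716 arrays 7, 9 and 11, 43.3 in YAD350 and 57.4 in YLK804. In RM11-1a it was 2.50, 3.05 and 2.62, and in YLK806 it was 2.69. All 5 laboratory arrays lay far above all 4 vineyard arrays, while the reference channel kept between 9.36 and 15.5 times its background. BY4716 had a mean log2 ratio to the reference of 0.85 ± 0.053 (SD, n = 3), and RM11-1a one of -1.82 ± 0.14 (SD, n = 3), a fitted difference of -2.68 with a standard error of 0.069, or 6.39-fold lower in RM11-1a. The scanner's own background-subtracted ratios, which have no offset, put the difference at -3.93. COS6 was still well above background on all 3 RM11-1a arrays. Its 2 spots differed by up to 1.01 on the log2 scale, on RM11-1a array 7, against a median gap of 0.042 over the 71 pairs of member spots. In the exchange strains it followed the background: the log2 ratio was 1.08 in YAD350, where 1 of its 2 spots was left out for an outlier flag, 1.15 in YLK804 and -2.17 in YLK806. The order from low to high was YLK806, RM11-1a, BY4716, YAD350 and YLK804, and YAD350 and YLK804 differed by less than the range of the BY4716 arrays.

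COS8 combined a strain difference with a large difference among the laboratory strains. Its signal over background was 2.73, 2.41 and 2.25 on BY4716 arrays 7, 9 and 11. It was 12.8 in YAD350 and 12.7 in YLK804. In RM11-1a it was 1.097, 1.09 and 1.23, and in YLK806 1.25, close to no signal. The reference stayed between 1.84 and 2.73 times its background, so the Cy5 channel carried the difference. BY4716 had a mean log2 ratio of 0.18 ± 0.024 (SD, n = 3) and RM11-1a one of -0.42 ± 0.072 (SD, n = 3). YAD350 read 1.61, YLK804 read 1.49 and YLK806 read -0.63. YAD350 stood 1.43 (SE 0.062) above BY4716, 2.69-fold, and YLK804 1.31 (SE 0.062) above it, 2.47-fold. RM11-1a stood 0.60 (SE 0.044) below BY4716 on this scale. As no RM11-1a array measured COS8, the fold between the parents is a bound, at least 1.45-fold lower in RM11-1a. Such bounds are taken from the Cy5 channel alone, where COS8 was 0.67 lower on the log2 scale, and can lie on either side of the fold of the ratio.

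The size of the COS8 differences depends on how background is handled, because the offset of 50 added to both channels draws dim genes toward 0. With an offset of 10 the values were -1.62 for RM11-1a, 1.98 for YAD350 and 1.72 for YLK804, each against BY4716. In the scanner's ratios they were -2.84, 2.31 and 1.94. Direction was the same at each setting. YLK804 and YLK806 were scanned on one day, and within that day COS8 stood at 12.7 times background in YLK804 and at an unmeasured 1.25 in YLK806.

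COS7 showed a smaller difference of the same kind between the laboratory strains. Its signal over background was 2.04, 1.67 and 1.701 on BY4716 arrays 7, 9 and 11, 4.12 in YAD350 and 3.66 in YLK804. It was 1.71, 1.84 and 2.00 in RM11-1a and 2.37 in YLK806. The parents lay close together and both exchange strains of the laboratory background lay above every other array. The log2 difference from BY4716 was 0.71 (SE 0.046) in YAD350 and 0.44 (SE 0.046) in YLK804. COS7 was dim on every array, and the scanner's ratios gave 2.08 and 1.18. RM11-1a stood 0.10 (SE 0.032) above BY4716, or 0.31 in the scanner's ratios.

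COS4 and COS5 were higher in the vineyard strain. The log2 ratio of COS4 was -0.54, -0.55 and -0.57 on BY4716 arrays 7, 9 and 11, -0.44 in YAD350 and -0.57 in YLK804. It was 0.085, 0.19 and 0.094 in RM11-1a and -0.089 in YLK806. The 4 vineyard arrays lay above the 5 laboratory arrays without overlap, and COS4 was the one member to do so in that direction. The difference between the parents was 0.67 (SE 0.040), 1.6-fold, and it lay between 0.64 and 0.74 under every setting tried. COS5 read -0.64, -0.56 and -0.62 in BY4716 and -0.22, -0.070 and -0.28 in RM11-1a, a difference of 0.42 (SE 0.057). It did not separate the backgrounds, because YAD350, at -0.15, lay among the RM11-1a arrays.

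COS9 and COS1 were lower in the vineyard strain, by 1.2-fold and 1.14-fold. COS9 read -0.034, 0.0026 and -0.025 on BY4716 arrays 7, 9 and 11 and -0.25, -0.22 and -0.39 in RM11-1a, a difference of -0.27 (SE 0.049). COS1 read -0.025, 0.049 and -0.0018 in BY4716 and -0.16, -0.12 and -0.25 in RM11-1a, a difference of -0.19 (SE 0.044). For both genes the vineyard arrays lay below the laboratory arrays without overlap, with YLK806 at -0.35 for COS9 and -0.32 for COS1. COS10 read 0.14, 0.083 and 0.11 in BY4716 and 0.027, -0.0044 and -0.017 in RM11-1a. The difference, -0.11 (SE 0.034), is a bound of at least 1.07-fold, and it turned to 0.03 when arrays were centred on the median in place of loess, so COS10 has no settled direction.

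COS2 and COS3 were the members that did not pass the test between the parents. COS2 read -0.18, -0.051 and -0.17 in BY4716 and -0.045, 0.035 and -0.047 in RM11-1a, a difference of 0.11 (SE 0.047). COS3 read -0.19, -0.078 and -0.19 in BY4716 and -0.098, -0.087 and -0.086 in RM11-1a, a difference of 0.06 (SE 0.041), and it was the one member whose parental arrays overlapped. Both genes had strong signals, at 72.2 to 164 times background for COS2 and 94.5 to 177 times for COS3. In YAD350 they read 0.23 and 0.20, above all 3 BY4716 arrays.

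Counted over the family, limma called 8 of 10 members between the parents at a Benjamini-Hochberg adjusted p under 0.05, 3 higher and 5 lower in RM11-1a. It called 63.0% of all genes tested, 33.1% higher and 29.9% lower, and the members were chosen with these results known, so nothing is read from the members' share. The parental arrays did not overlap for 9 of 10 members, beside 70.2% of all genes. All 4 vineyard arrays lay on one side of the 5 laboratory arrays for 6 of 10 members, beside 34.4% of all genes. COS1, COS6, COS8, COS9 and COS10 read lower in the vineyard background with loess, beside 15.7% of all genes, though the parental difference of COS10 turns with median centring. COS4 read higher, beside 18.7%. One member, COS6, passed 2-fold in the parental comparison, beside 5.76% of all genes. COS8, unmeasured in RM11-1a, passed 2-fold with an offset of 10, beside 8.18% of all genes, and in the scanner's ratios, beside 10.5%. The median over the members was -0.02 on the log2 scale against 0.01 over all genes. The members thus differed in both directions: the family did not move as one between the parents.

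Parental arrays 9 were the only arrays of both parents scanned on one day. Within that day RM11-1a minus BY4716 was -2.52 for COS6, 0.74 for COS4, 0.50 for COS5, -0.22 for COS9 and -0.17 for COS1, and COS8 stood at 1.09 times background in RM11-1a and 2.41 in BY4716. With scan day as a block 6 of 10 members were called. The share of all genes called at that setting is not given here, so nothing is read from this count. BY4716 arrays 7 and 11 shared a slide and a day, so part of the parental spread is within one scan.

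In YAD350, 8 of 10 members were called higher than in BY4716 and none lower, beside 47.1% of all genes called, 26.6% higher and 20.5% lower. COS8 was the one member past 2-fold, beside 1.86% of all genes. With an offset of 10 COS7 passed too, beside 2.96% of all genes, and in the scanner's ratios COS7 and COS10 did, the latter at 1.21, beside 4.55%. The members' median difference was 0.36 on the log2 scale against 0.02 over all genes. Besides COS8 and COS7 these were COS5 at 0.46, COS2 at 0.36, COS3 at 0.36, COS9 at 0.36, COS1 at 0.30 and COS10 at 0.17. COS6 at 0.23 (SE 0.098) and COS4 at 0.11 (SE 0.057) did not pass the test. In all 10 members the Cy5 channel by itself also read higher in YAD350. For COS9 the channels shared the change, with Cy5 up by 0.10 and Cy3 down by 0.25. The 39 tested genes beside the COS genes, described below, had a median of 0.18 in this comparison. That compares with 0.36 for the members and 0.02 over all genes. A single array carries this comparison, scanned on a day of its own, and its spread was taken from the parental arrays; array, scan day, the extra histidine and the strain cannot be told apart.

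In YLK804, 2 of 10 members were called, beside 21.1% of all genes. Both, COS8 and COS7, read higher than in BY4716, as did 644 of the 1240 called genes. COS8 was again the one member past 2-fold, beside 0.801% of all genes, and COS7 joined it in the scanner's ratios, beside 1.72%. The other 8 lay between -0.07 (COS1) and 0.30 (COS6, SE 0.098). The 2 comparisons share the BY4716 arrays, so the values stand side by side: COS8 at 1.43 and 1.31 in YAD350 and YLK804, COS7 at 0.71 and 0.44, COS2 at 0.36 and -0.06, COS1 at 0.30 and -0.07. More members were called in YLK804 without RM11-1a array 9, which enters only the spread. The member count thus depends on the parental spread, as does the count over all genes.

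In YLK806, 3 of 10 members were called lower than in RM11-1a and none higher, beside 22.5% of all genes called, 11.8% lower and 10.8% higher. None reached 2-fold, beside 0.546% of all genes. In the scanner's ratios the unmeasured COS8 did, beside 1.81% of all genes. The members called were COS6 at -0.35 (SE 0.098), COS4 at -0.21 (SE 0.057) and COS8 at -0.21 (SE 0.062). Neither strain had an array that measured COS8, so its value and its call compare 2 unmeasured groups and say nothing of a difference. For COS4 and COS8 the Cy5 channel itself was higher in YLK806, by 0.22 and 0.02, and the Cy3 channel was higher by 0.43 and 0.23, so the reference channel set the sign. All 3 calls were lost when arrays were centred on the median, and also without BY4716 array 7 or without BY4716 array 11, arrays that enter only the spread. A single call was left without BY4716 array 9 or without RM11-1a array 7, and the scanner's ratios gave 1 called higher and 1 lower. The plot of differences shows all 4 comparisons.

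**Figure D2:**
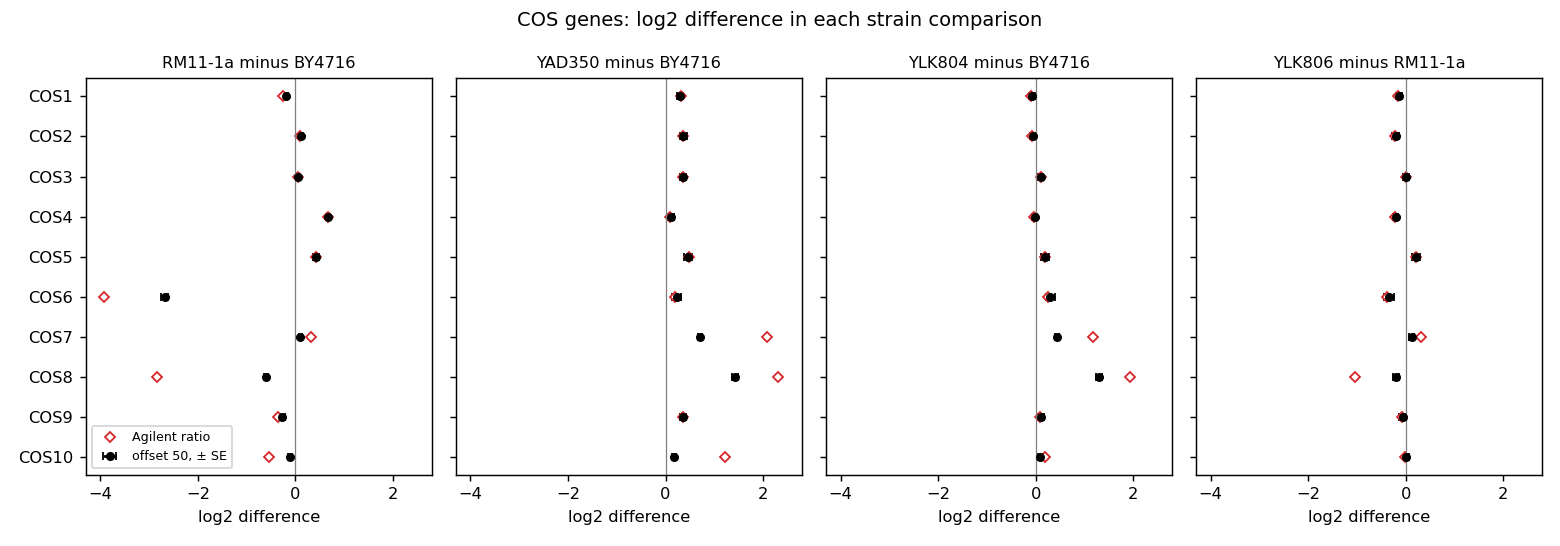
Log2 difference of each COS gene in the 4 strain comparisons. Black points are the fitted values with an offset of 50, with bars of ± 1 standard error, and open red diamonds are the scanner's own ratios; the settings lie together for the bright genes and apart for COS6, COS7, COS8 and COS10.

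COS12, the relative left out of the member list, read the opposite way from COS8. Its strain channel was not well above background on any laboratory array, at 1.18, 1.16 and 1.20 times background in BY4716, 1.54 in YAD350 and 1.31 in YLK804. It was well above background on all 4 vineyard arrays, at 2.33, 2.27 and 2.40 in RM11-1a and 2.39 in YLK806. The ratio in RM11-1a was 0.58 (SE 0.039) above BY4716, with an adjusted p of 1.38e-05 in limma. In Cy5 alone the difference was 0.65, which gives a bound of at least 1.52-fold higher.

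The DUP240 genes code for small membrane proteins of the same superfamily as the Cos proteins. With COS12 they made a list of 10 tested genes, of which 2 were called higher and 7 lower in RM11-1a, with a median of -0.59 on the log2 scale against 0.01 over all genes and 63.0% of all genes called. DFP4 read 1.15 lower with an adjusted p of 6.51e-07, KTD1, which protects against a killer toxin, 1.07 lower with 3.86e-07, and UIP3, a nuclear envelope protein, 1.00 lower with 1.18e-05. No RM11-1a array measured DFP4 or KTD1 well above background, so their folds in Cy5 are bounds, at least 2.38-fold and at least 2.08-fold lower, beside Cy5 differences of -1.30 and -1.15. Against the same BY4716 arrays, 3 of the 10 were called higher and 1 lower in YAD350, beside 47.1% of all genes, and 1 higher and 2 lower in YLK804, beside 21.1%. Against RM11-1a, 2 were called lower in YLK806, beside 22.5%. None of the 10 reached 2-fold in any exchange strain against its parent.

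The machinery that Cos proteins work with showed no common direction. Of 20 genes for multivesicular body sorting, 6 were called higher and 6 lower in RM11-1a, beside 63.0% of all genes called, with a median of 0.04. VPS36, a subunit of ESCRT-II, read 0.55 lower with an adjusted p of 2e-05, BRO1, which brings the deubiquitinase to ESCRT-III, read 0.44 higher with 3.96e-05, and VPS25, another ESCRT-II subunit, 0.36 higher with 0.014. In YAD350, 5 of the 20 were called higher and 7 lower, beside 47.1% of all genes. In YLK804 and in YLK806 2 were called, each lower, beside 21.1% and 22.5% of all genes.

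Of 19 genes for silencing near telomeres, 2 were called higher and 8 lower in RM11-1a, beside 63.0% of all genes called, with a median of -0.08. DOT1, the methyltransferase of histone H3, read 0.61 lower with an adjusted p of 1.5e-05, HDA1, a histone deacetylase, read 0.55 lower with 1.51e-05, and TUP1, a general corepressor, read 0.44 higher with 0.000695. In the exchange strains, 3 were called higher and 6 lower in YAD350, beside 47.1% of all genes, 3 higher in YLK804, beside 21.1%, and 7 higher in YLK806, beside 22.5%. SIR2, the deacetylase of silent chromatin, read 0.91 higher in YAD350, with Cy5 up by 0.31 and Cy3 down by 0.59, so most of that value came from the reference channel.

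The genes beside the COS genes were not used to choose them. Taking up to 3 genes with a probe on either side of each member, in the gene order of the R64 annotation, gave 43 neighbours, of which 39 were tested. In RM11-1a 16 were called higher and 16 lower than in BY4716, 32 of 39, beside 63.0% of all genes. Requiring a strain signal on all 9 arrays left 26, of which 21 were called. The 63.0% belongs to the main filter, so it cannot be set beside this count. On the telomere side 9 of 13 neighbours were called lower and 3 higher, beside 29.9% and 33.1% of all genes. The median on that side was -0.58. The 9 include the helicase genes described below, whose probes can read one another's transcripts. They are thus not 9 separate observations, here or within the 32 of 39. Whether the remaining probes among the 9 share signal was not tested. On the centromere side 7 of 26 were called lower and 13 higher, with a median of 0.11. Whether the sides differ was not tested.

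**Figure D3:**
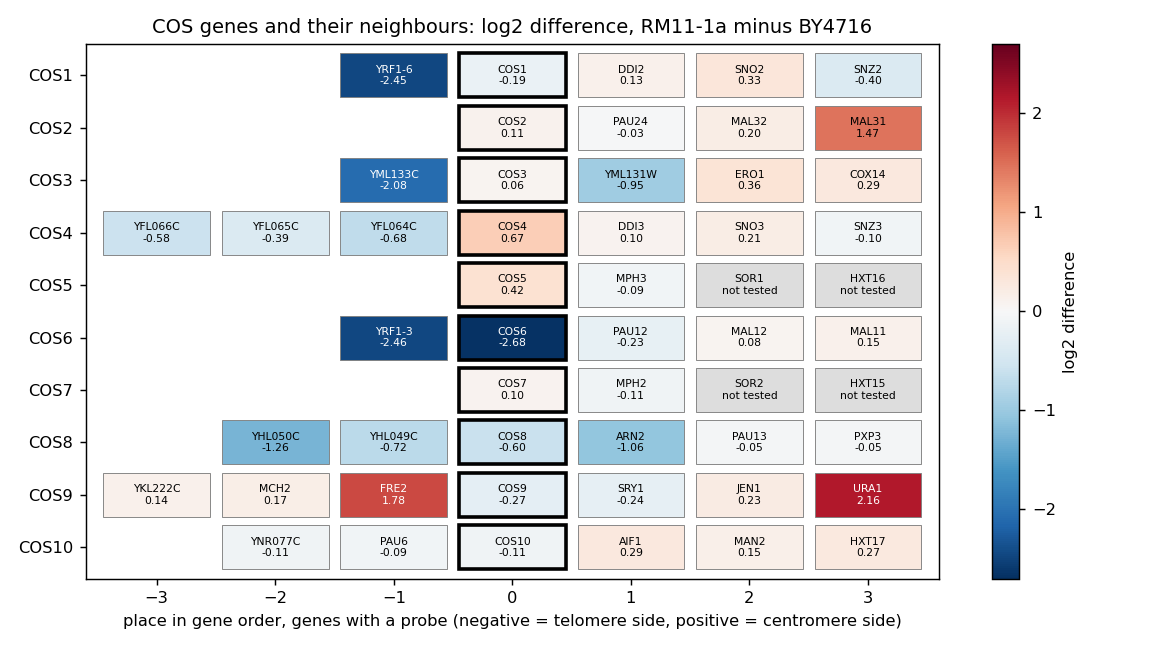
Log2 difference RM11-1a minus BY4716 for each COS gene (bold boxes) and up to 3 neighbours on each side in gene order, telomere side to the left; red is higher and blue lower in RM11-1a, and grey boxes were not tested. COS6 at -2.68 lies beside YRF1-3 at -2.46, and COS8 lies in a run of lower readings from YHL050C to ARN2.

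The neighbours with the lowest values were helicase genes of the Y' elements, repeats carried at many chromosome ends. YRF1-3, next to COS6, read 2.46 lower in RM11-1a with an adjusted p of 1.43e-07, and YRF1-6, next to COS1, read 2.45 lower with 3.03e-08. YML133C, next to COS3, read 2.08 lower with 1.47e-07. YRF1 copies are nearly identical, so these probes can read one another's transcripts and are not separate observations. COS1 and COS3 beside them read only 0.19 lower and 0.06 higher, whereas COS6 read 2.68 lower.

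In gene order, COS8 lay in a run of genes that read lower in the vineyard strain. Going in from the telomere, YHL050C read 1.26 lower with an adjusted p of 3.8e-07, YHL049C read 0.72 lower with 1.44e-05 and, past COS8, ARN2, a transporter of iron-siderophores, read 1.06 lower with 1.12e-05. ARN2 stood at 4.76, 3.79 and 4.24 times background in BY4716 and at 1.09, 1.09 and 1.26 in RM11-1a, where no array was well above background. In Cy5 it was 1.23 lower, which gives a bound of at least 2.12-fold. YLK806 read 1.15. The next genes inward, PAU13 and PXP3, read -0.05 each and were not called. PXP3 was not well above background on any array of either parent, so its value compares unmeasured groups. DFP4, which by its systematic name YHL044W lies further in, read 1.15 lower, and no RM11-1a array measured it. Where the run ends is thus not settled. Whether the probes of YHL050C, YHL049C and PAU13 take signal from similar genes elsewhere was not tested. The run is thus one of probe readings placed in gene order.

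ARN2 and COS8 parted in YLK804. ARN2 read 1.46 higher in YAD350 than in BY4716, with an adjusted p of 0.000138, but 0.14 lower in YLK804, with 0.35, whereas COS8 read 1.43 and 1.31 higher. YHL050C, on the other side, read 0.52 and 0.54 higher, with adjusted p of 0.000778 and 0.00269, but its Cy5 channel was up by only 0.13 and 0.02 while Cy3 was down by 0.39 and 0.52, so the reference channel made most of these values.

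Other neighbours were higher in RM11-1a. MAL31, the maltose permease 3 genes in from COS2, read 1.47 higher with an adjusted p of 4.7e-07. URA1, which makes orotate for pyrimidine synthesis and lies 3 genes in from COS9, read 2.16 higher with 5.94e-08. URA1 was also 2.19 higher in YAD350 and 2.23 higher in YLK804 than in BY4716, and URA3 read -3.87, -4.27 and -4.845 against BY4716 in RM11-1a, YAD350 and YLK804; the part of URA3 in this was not tested. FRE2, a ferric reductase next to COS9, read 1.78 higher with an adjusted p of 0.0411, but its RM11-1a arrays 7, 9 and 11 read 2.66, -0.12 and 0.31, so that array 7 set the value. Within the shared scan day FRE2 read 0.69 higher.

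COS6 and COS8 had the widest ranges over the 9 arrays among the members, at 3.33 and 2.24 on the log2 scale. For each, the 3 genes with the most similar ratios were taken from 5821 genes, with the likeness given as Pearson r over 9 arrays of 5 strains that share a reference. The genes most like COS6 were DSE2, a secreted protein of daughter cells (r = 0.9989), VTH1 (r = 0.9988) and VTH2 (r = 0.9985), a pair of near-identical genes resembling the vacuolar sorting receptor VPS10. These r rest on the split between 5 laboratory and 4 vineyard arrays. DSE2 averaged 0.88 in BY4716 and -1.94 in RM11-1a and read -2.17 in YLK806. VTH1 and VTH2 were well above background on 5 arrays only, those of the laboratory background.

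The gene most like COS8 was YIR043C (r = 0.9979), followed by VID24 (r = 0.98), which targets gluconeogenic enzymes for breakdown, and EUG1 (r = 0.98), a disulfide isomerase of the endoplasmic reticulum. YIR043C, on the right arm of chromosome IX, is known in the laboratory strain as part of a broken COS gene, so its probe and that of COS8 can share signal. Its signal over background was 3.19, 2.91 and 2.55 in BY4716, 15.2 in YAD350, 14.2 in YLK804, 1.09, 1.12 and 1.32 in RM11-1a and 1.19 in YLK806, the pattern of COS8 array by array. No RM11-1a array measured YIR043C well above background, so its fold below BY4716 is a bound, at least 1.63-fold in Cy5, with an adjusted p of 3.74e-06 for its ratio. Against BY4716 it read 1.47 higher in YAD350 with 1.51e-05 and 1.24 higher in YLK804 with 1.5e-05. YIR044C, its neighbour and the other piece of the broken gene, was chosen after its values were seen. It read 0.02 higher in RM11-1a with an adjusted p of 0.806 and 0.28 higher in YLK804 with 0.0621, and 0.66 higher in YAD350 with 0.00131, where its Cy5 channel was up by 0.14. The plot of these genes by array shows COS8 and YIR043C together and YIR044C apart from them.

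**Figure D4:**
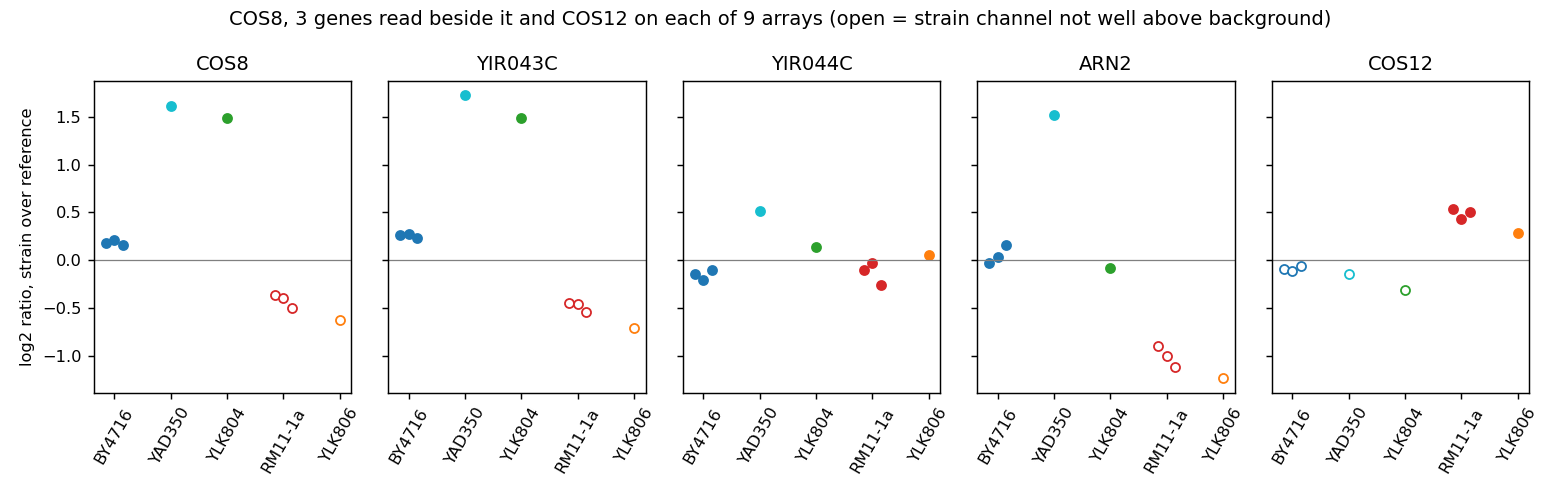
Log2 ratio of strain over reference for COS8, YIR043C, YIR044C, ARN2 and COS12 on each of 9 arrays; open points were not well above background in the strain channel. COS8 and YIR043C are high in both YAD350 (1.61 and 1.73) and YLK804 (1.49 and 1.49), ARN2 is high in YAD350 alone among the 5 laboratory arrays, and COS12 is open on the laboratory arrays.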

How the data were processed

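RNA of 5 yeast strains was read on 9 Agilent arrays with 2 colours. The deposited scanner files hold spot intensity and local background in each channel, read with Feature Extraction 8.5.1.1 (7 arrays) or 9.1.3.1 (YLK804 and YLK806), and a log10 ratio of Cy5 over Cy3 made after background subtraction and dye normalization, per the file headers. The deposited series table holds log2 ratios, which equalled the scanner's ratios within 5e-04 on the log2 scale, and its column medians lay between 0 and 0.008.

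Mean signals were corrected with normexp (offset 50) and loess in limma 3.58.1 under R 4.3.3, with control spots at weight 0. Spots with an outlier flag were left out, and spots of a gene were averaged. A gene had to be well above background, by strain or reference channel, on 3 or more of the 9 arrays, which kept 5865 of 6256. One model with 5 groups was fitted (lmFit and eBayes, 4 residual degrees of freedom), with Benjamini-Hochberg adjustment over all genes and a threshold of 0.05. Strains with a single array borrow the spread of the parental arrays. The strain channel measured 89.5% to 93.8% of genes well above background; precision is limited by how few arrays there are.

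A gene that no array of a group measured gets an "at least" fold. It divides the brighter group's mean by a floor, averaged over the dim group's arrays, where each array gives the dimmest signal still well above background or the probe's own signal if that is higher. These values are per channel after Aquantile and open to dye bias, as no dyes were swapped. Names and gene order came from the R64 annotation, which matched 5756 names; no coordinates were used, as the files name no build, and no probe sequences were used here.

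The members and lists were chosen with earlier results of these data known. The text names all members, the 3 called genes of a list with the largest parental difference, COS12, neighbours, strain markers, SIR2 and the 3 genes most like COS6 and COS8. Intensities were simulated with independent noise for each gene and spot and no added effect of scan day or array. Recovery in the real data can therefore differ. On simulated intensities for 5865 genes, the parental comparison recovered 82.1% of genes changed by 1.5-fold and 98.5% of those changed by 2-fold. Its estimates had a median of 0.824 and 0.808 of the true log2 difference. The simulated YAD350 comparison, with its single array, recovered only 45.5% and 89.6%. Alternatives were the scanner's ratios, the series table, an offset of 10, median centring, Aquantile, other filters, an intensity trend, scan day and replicate number as blocks, and leaving out each parental array; differences within a scan day were added after seeing the data.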

Additional observations from a re-analysis of the deposited data

Results flagged for a closer look

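The RM allele of SAL1 was set in the laboratory background (YLK804 against BY4716) and taken out of the vineyard background (YLK806 against RM11-1a). For 3 of 10 members the effect of that allele differed between the backgrounds by a test of the interaction in the same limma model, beside 38.6% of all genes called in that test. The difference, laboratory minus vineyard, was 1.1 on the log2 scale for COS8, 0.559 for COS7 and 0.383 for COS5. The effects behind it were 1.31 and 0.211 for COS8, 0.442 and -0.117 for COS7, and 0.183 and -0.2 for COS5. For COS5 the Cy5 channel changed by only -0.006 in YLK804 against BY4716 and 0.034 in YLK806 against RM11-1a. The Cy3 channel changed by -0.19 and -0.17, so the reference channel made most of the COS5 value. COS8 was not well above background on any vineyard array, so its vineyard effect is not a measured one. Each exchange strain had 1 array, and YLK804 differs from BY4716 in mating type and URA3 as well as in SAL1, so the allele and these differences cannot be told apart. The contrast also sets the YLK804 and YLK806 arrays together against the parental arrays. They alone were scanned on their day and read with Feature Extraction 9.1.3.1. Scan day and software therefore cannot be told apart from the interaction either.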

How the results depend on the processing

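The members' differences kept their sign in 165 of 168 values recomputed for the parents, in all 148 for YAD350 and YLK804 and in 144 of 148 for YLK806. The one called value that changed sign was COS10 between the parents, at 0.0286 with median centring. Counts over all genes that moved by over 1.5 times were those of the exchange strains with SAL1. Median centring gave 629 called genes for YLK804 (1240 as reported) and 800 for YLK806 (1320 as reported). Leaving out 1 parental array gave 590 to 1449 for YLK804 and 856 to 1562 for YLK806. BY4716 arrays 7 and 11 moved them most: without array 7 the counts were 590 and 867, without array 11 they were 623 and 856. The neighbours called between the parents went from 32 to 21 under the stricter filter, which left 26 to test, and lay between 23 and 30 with 1 array left out. Parental arrays of the same number did not deviate together (r = -0.209 for 7, 0.137 for 9, -0.176 for 11), so the numbers were not taken as pairs. With the replicate block the counts were 3400 for the parents, 28 for the neighbours, 2353 for YAD350, 688 for YLK804 and 749 for YLK806. Scan day as a block could be fitted for the parents alone. Dim signal limits COS7, COS8 and COS10, whose sizes change with the background correction.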
